A study of Mus musculus with 14 samples.

Results

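The genes described here are 8 transcription factor genes known for holding back the differentiation of oligodendrocyte precursor cells (OPCs) into myelin-forming oligodendrocytes (OLs): Id1, Id2, Id3, Id4, Hes1, Hes5, Sox5 and Sox6. They were taken by gene symbol from a table of 23427 genes, and all 8 were found. Their mRNA levels come from sequencing of poly(A) RNA of cultured mouse OPC/OLs, in 14 libraries that form 7 groups of 2. The study asked what changes in differentiating OPC/OLs when Secisbp2l (Sbp2l), which encodes a relative of the selenocysteine insertion factor Sbp2, is knocked down (KD).

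OPCs were wild type, of the strain C57BL/6J, and came from the cortex of postnatal day 7 pups by immunopanning on an antibody against the receptor PDGFRα, after plates that bind microglia and endothelial cells had been used to remove those. Day0 OPCs had grown with the mitogen PDGF-AA. The other 6 groups were taken at Day3 of differentiation, which was started by withdrawing PDGF-AA and adding the thyroid hormone T3. The 4 controls among them were left non-treated, went through a mock transfection, or were transfected with either of the non-targeting siRNAs, called NC siRNA #1 and NC siRNA #2. In the last pair of groups the transfected siRNA was directed at Secisbp2l (siSbp2l) or at Pdgfra (siPdgfra). The sample labels name a serum-containing culture medium, whereas the study's methods describe growth factor media. Each target had 1 siRNA group, so an effect on other transcripts of the same siRNA cannot be told apart from that of the KD. The study calls the 2 libraries of a group independent replicates of cultured OPCs and does not say whether they came from separate pools of pups. The p-values measure the spread between such replicates.

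Id proteins are helix-loop-helix (HLH) proteins without the basic stretch that contacts DNA. They pair with E proteins and with Olig factors and keep them off their DNA sites, and BMP signalling is a well-known inducer of their genes. Hes1 and Hes5 are basic HLH repressors that the Notch pathway switches on through its DNA-binding factor Rbpj, and they recruit co-repressors of the Tle family. Sox5 and Sox6 are SoxD proteins, which bind DNA but carry no activation domain and counteract Sox9 and Sox10 at myelin genes.

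Recovered depths ranged from 6560825 fragments in NC siRNA #2 replicate 2 to 31621282 fragments in Day0 replicate 1, and between 10834 and 11034 genes had at least 1 FPKM (fragments per kilobase of exon, relative to the depth of the library) in a library. The non-treated libraries stood apart from each other, with an SD of the log2 difference between replicates of 0.457 over genes, against 0.148 to 0.20 in the other groups. The target check held in every library, as mean Secisbp2l in siSbp2l was 0.0210 of the mean of the 4 Day3 control groups and mean Pdgfra in siPdgfra was 0.0577 of it. Markers of OLs (7 genes from Mbp to Cldn11) summed to between 727 and 807 FPKM in Day0, 6730 to 10012 FPKM in the 8 control libraries, 2664 to 2844 FPKM in siSbp2l and 5050 to 5799 FPKM in siPdgfra. In bulk RNA, fewer cells of a type and less RNA per cell cannot be told apart.

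Promoter sequence was shown for the members whose mRNA rose in siSbp2l and whose windows hold the Rbpj core or the sequence GGCGCC, both described below. The windows are the 250 bases before the RefSeq start of the gene on GRCm38.p6, the assembly also called mm10, written 5′ to 3′ on the strand of the gene. Hes5 is at chr4:154960673-154960922 on the plus strand, Id2 at chr12:25096093-25096342 on the minus strand, and Id4 at chr13:48260866-48261115 on the plus strand, upstream of the start that the deposited table gives for Id4. Capitals mark matches on either strand to the E-box CANNTG of HLH proteins, the N-box CACNAG of Hes proteins, the Rbpj core GTGGGAA and the sequence GGCGCC that BMP-activated Smads can bind.
Hes5: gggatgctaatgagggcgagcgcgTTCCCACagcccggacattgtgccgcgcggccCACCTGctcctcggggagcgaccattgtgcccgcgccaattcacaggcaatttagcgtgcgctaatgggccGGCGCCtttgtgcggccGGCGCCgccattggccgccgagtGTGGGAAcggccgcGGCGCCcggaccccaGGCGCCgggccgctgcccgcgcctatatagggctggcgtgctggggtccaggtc
Id2: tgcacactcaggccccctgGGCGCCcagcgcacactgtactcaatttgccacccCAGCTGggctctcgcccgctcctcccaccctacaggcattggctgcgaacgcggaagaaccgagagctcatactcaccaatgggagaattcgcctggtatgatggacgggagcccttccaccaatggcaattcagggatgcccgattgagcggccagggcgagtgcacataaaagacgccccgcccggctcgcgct
Id4: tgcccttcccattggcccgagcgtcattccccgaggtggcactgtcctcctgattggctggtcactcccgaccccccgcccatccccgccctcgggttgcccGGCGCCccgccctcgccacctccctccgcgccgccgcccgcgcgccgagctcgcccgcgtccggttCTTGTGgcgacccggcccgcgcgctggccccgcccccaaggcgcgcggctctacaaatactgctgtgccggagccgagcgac
Hes5 held the Rbpj core at position -226, read on the opposite strand as TTCCCAC, and at position -83, where -1 is the base before the start and a position names the first base of a match. It also held GGCGCC at -123, -106, -69 and -54 and the E-box CACCTG at -194. Id2 held GGCGCC at -231 and the E-box CAGCTG at -196, and Id4 held GGCGCC at -148 and an N-box, read as CTTGTG, at -82. No matches in these windows overlapped. Of 32851 promoter windows in the table, 5.4% held the Rbpj core, 9.6% GGCGCC, 36.7% an N-box and 66.2% an E-box. These shares are not matched for GC content, and the windows shown were chosen for holding a match, so the shares do not test them. The windows of Id3 and Sox5 held no match and the 6 windows of Sox6 held E-boxes and N-boxes alone, which says only that the other letters were not in these stretches. The mRNA of Id3 and Sox6 also rose in siSbp2l against the mean of the controls. Id1 and Hes1 had no entry. A match is a description of the letters and not a site shown to be bound.

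Across the 7 groups, 7 of the 8 genes were at their highest group mean in siSbp2l, and Sox5 was at its highest in Day0. Abundance per length ranged widely. Id2, Id3 and Sox6 lay between 27.8 and 162 FPKM in every library, Id4, Hes1 and Hes5 between 0.902 and 16 FPKM, and Sox5 never exceeded 0.724 FPKM.

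**Figure D1:**
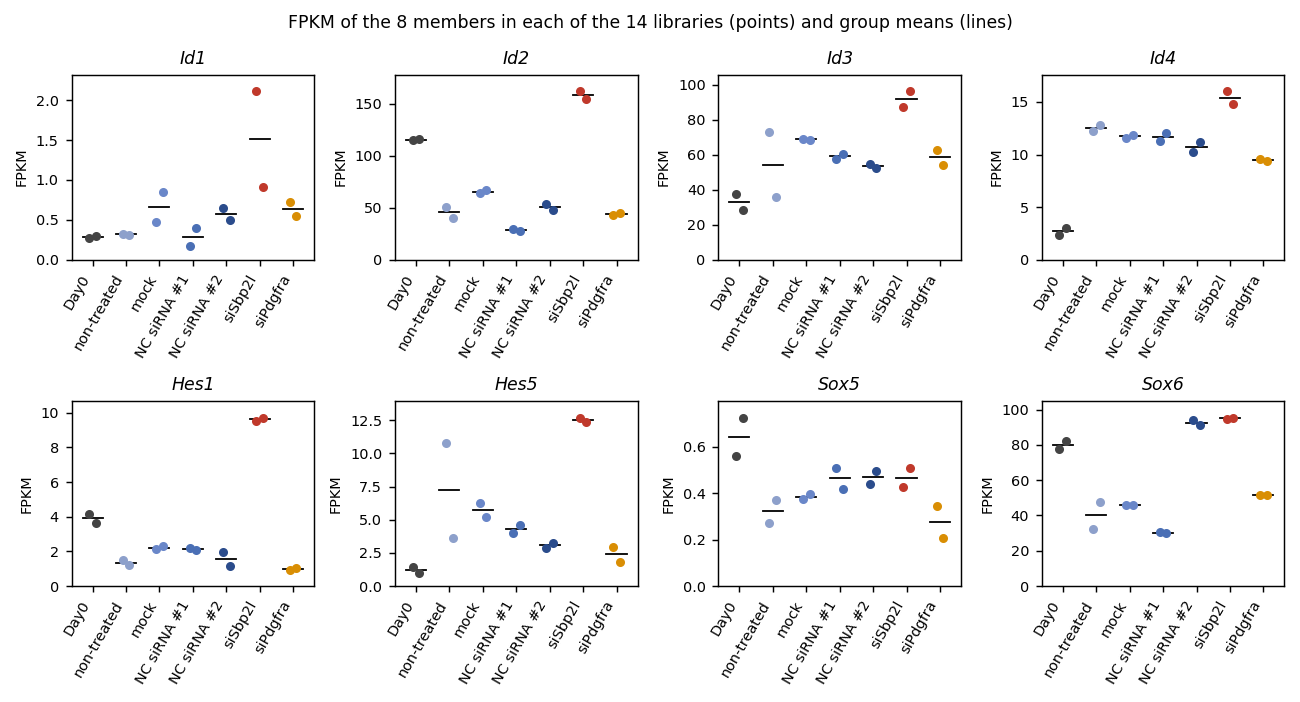
FPKM (linear axes from 0, a separate scale for each gene) of the 8 genes in the 7 groups, with a point for each library and a line for the mean of the 2 libraries. The red siSbp2l points lie above all other points in 7 of the 8 panels, and NC siRNA #2 lies at the level of siSbp2l for Sox6.

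Id2 (chr12:25093799-25096092, minus strand) was the most abundant Id gene in Day0. Its mRNA stood at 115 and 116 FPKM in Day0, 51.0 and 40.5 in non-treated, 64.1 and 66.8 in mock, 29.8 and 27.8 in NC siRNA #1, 53.9 and 47.4 in NC siRNA #2, 162 and 155 in siSbp2l, and 42.8 and 45.0 in siPdgfra. All 4 control groups thus lay below Day0 and siSbp2l lay above it, with no overlap. The mean of siSbp2l was 3.33 times that of the controls and 1.37 times that of Day0. Non-treated, NC siRNA #2 and siPdgfra overlapped with their neighbours in the order of the group means, and NC siRNA #1 was the lowest group.

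Id3 (chr4:136143822-136145392, plus strand) went the other way between Day0 and Day3. It stood at 37.3 and 28.3 FPKM in Day0, 73.0 and 35.6 in non-treated, 69.0 and 68.6 in mock, 57.6 and 60.6 in NC siRNA #1, 54.4 and 52.5 in NC siRNA #2, 87.3 and 96.1 in siSbp2l, and 62.9 and 54.0 in siPdgfra. Both siSbp2l libraries were above all others, and the lower non-treated library fell within the range of Day0. The middle of the order, from NC siRNA #1 through siPdgfra and non-treated to NC siRNA #2, could not be separated by the ranges of the libraries.

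Id4 (chr13:48261427-48264036, plus strand) was low in Day0, at 2.38 and 3.03 FPKM. At Day3 it stood at 12.2 and 12.8 FPKM in non-treated, 11.6 and 11.9 in mock, 11.3 and 12 in NC siRNA #1, 10.2 and 11.2 in NC siRNA #2, 16 and 14.8 in siSbp2l, and 9.54 and 9.43 in siPdgfra. The 8 control libraries spanned a narrow range, with siSbp2l above and siPdgfra below all of them. The siSbp2l mean was 1.32 times and the siPdgfra mean 0.814 times the mean of the controls.

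Id1 (chr2:152736274-152737410, plus strand) was barely detected. It reached 1 FPKM in a single library and was therefore not tested, since a gene needed at least 1 FPKM in at least 2 libraries. The siSbp2l libraries held 39 and 18 fragments of Id1 (2.11 and 0.911 FPKM), against 3 to 16 fragments in the control libraries (0.167 to 0.844 FPKM), 8 and 6 in Day0 and 14 and 10 in siPdgfra. Counting error alone gave exact Poisson 95% intervals of 1.5 to 2.89 FPKM and 0.540 to 1.44 FPKM for the siSbp2l libraries, the second of which includes the highest control. Without the filter on low values, Id1 differed between siSbp2l and the mean of the controls by 0.75 on the log2(FPKM + 1) scale (limma, adjusted p = 0.00818).

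Hes1 (chr16:30065357-30067796, plus strand) showed the largest ratio of the 8 genes between siSbp2l and the controls. It stood at 4.18 and 3.65 FPKM in Day0, 1.51 and 1.19 in non-treated, 2.12 and 2.29 in mock, 2.17 and 2.06 in NC siRNA #1, 1.94 and 1.16 in NC siRNA #2, 9.52 and 9.72 in siSbp2l, and 0.902 and 1.03 in siPdgfra. These values rest on 280 and 306 fragments in siSbp2l, 11 to 69 in the control libraries and 28 and 30 in siPdgfra. Hes1 was thus highest in siSbp2l, next in Day0, and lowest in siPdgfra, with none of these groups overlapping a control. The siSbp2l mean was 5.33 times that of the controls and 9.94 times that of siPdgfra.

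Hes5 (chr4:154960923-154962371, plus strand) differed from Hes1 in being low in Day0. It stood at 1.44 and 1.01 FPKM in Day0, 10.8 and 3.64 in non-treated, 6.27 and 5.21 in mock, 4.02 and 4.62 in NC siRNA #1, 2.89 and 3.23 in NC siRNA #2, 12.7 and 12.4 in siSbp2l, and 2.97 and 1.81 in siPdgfra. Both siSbp2l libraries were the highest, while siPdgfra overlapped NC siRNA #2 alone among the controls. The non-treated libraries differed more for Hes5 than any other pair did. Hes5 has the highest GC content of the 8 genes, 63.9% in its transcripts against 42.6% to 58.8% for the others.

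Sox6 (chr7:115471344-116038744, minus strand) was the abundant SoxD gene. It stood at 77.7 and 82.0 FPKM in Day0, 32.4 and 47.6 in non-treated, 46.2 in both mock libraries, 30.8 and 29.8 in NC siRNA #1, 93.8 and 91.4 in NC siRNA #2, 94.9 and 95.4 in siSbp2l, and 51.5 and 51.7 in siPdgfra. The 2 non-targeting siRNAs thus lay at opposite ends of the range, and NC siRNA #2 lay just under siSbp2l and above Day0. Sox5 (chr6:143828425-144209568, minus strand) stayed between 0.205 and 0.724 FPKM in all libraries, was highest in Day0 (0.558 and 0.724 FPKM) and was not tested. Its siSbp2l values, 0.425 and 0.508 FPKM, overlapped both NC siRNA groups, and without the filter on low values it differed from the mean of the controls by 0.06 (limma, adjusted p = 0.489).

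Between Day0 and the Day3 controls, Id2 and Hes1 were lower and Id3, Id4 and Hes5 were higher in all 4 groups, and Sox6 was lower in 3 of them. The test was limma on log2(FPKM + 1) over all 14 libraries, with Benjamini-Hochberg adjusted p-values over 11874 genes. A gene passed at an adjusted p under 0.05 and was called where it also changed by at least 2-fold. In mock, 3 of the 6 tested members were called, all higher, where 26.2% of all genes were called either way and 12.2% higher. These were Id4 (log2 fold change 1.79, SE 0.10, adjusted p = 3.89e-08), Hes5 (1.60, SE 0.33, adjusted p = 0.00128) and Id3 (1.06, SE 0.25, adjusted p = 0.00309). Id2, Hes1 and Sox6 passed in mock with log2 fold changes of -0.81, -0.62 and -0.78.

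The other control groups share the Day0 libraries and so are given side by side. Their signs were those of mock except for Sox6 in NC siRNA #2. In non-treated, 5 members were called (26.6% of all genes), with Id4 and Hes5 higher by 1.87 and 1.74 and Id2, Hes1 and Sox6 lower by log2 fold changes of -1.33, -1.06 and -1.0. In NC siRNA #1, 4 were called (29.3% of all genes), namely Id4 (1.78), Hes5 (1.26), Id2 (-1.97) and Sox6 (-1.37). In NC siRNA #2, 2 were called (28.2% of all genes), namely Id4 (1.66) and Id2 (-1.18). Sox6 in NC siRNA #2 had a difference of 0.21 from Day0 (adjusted p = 0.193), unlike its fall in the other 3 controls. That difference passed with only the compared libraries fitted (0.21, limma adjusted p = 0.028), and in 22 alternatives it did not. Id3 passed in all 4 controls, and without Day0 replicate 2 its adjusted p was 0.237 in non-treated, 0.0913 in NC siRNA #1 and 0.178 in NC siRNA #2. Without non-treated replicate 1 the Id3 difference in non-treated was 0.13 (adjusted p = 0.41), and Hes5 in NC siRNA #2 did not pass without either Day0 library or either NC siRNA #2 library.

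In siSbp2l, 4 members were called against Day0, all higher, where 22.8% of all genes were called either way and 12.1% higher. Hes5 rose by 2.61 (SE 0.33, adjusted p = 3.77e-05), Id4 by 2.15, Id3 by 1.47 and Hes1 by 1.11. Id2 passed with 0.45 (adjusted p = 0.00422) and Sox6 differed by 0.25 (adjusted p = 0.131). Sox6 passed with only the compared libraries fitted (0.25, limma adjusted p = 0.0142), and in 22 alternatives it did not. In siPdgfra, 3 were called against Day0 (27.7% of all genes), with Id4 higher by 1.51 and Id2 and Hes1 at log2 fold changes of -1.38 and -1.32. Hes1 thus rose from Day0 in siSbp2l and fell in siPdgfra.

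**Figure D2:**
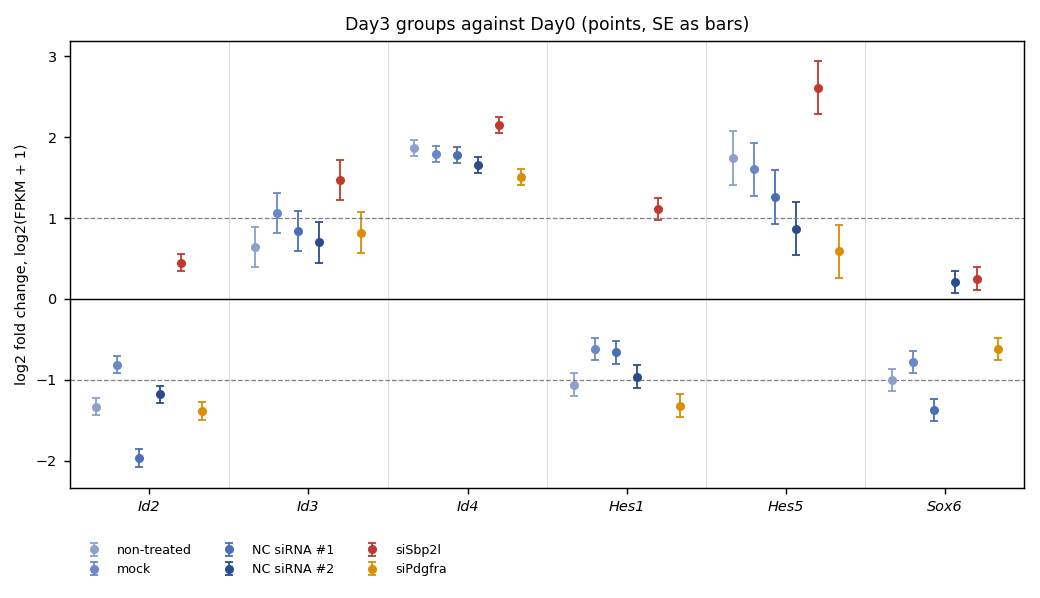
Log2 fold change on the log2(FPKM + 1) scale of the 6 tested genes in each Day3 group against Day0, as points with the SE as bars and dashed lines at 2-fold either way. Id2 and Hes1 lie above 0 in siSbp2l alone, and Id4 lies above the upper dashed line in all 6 groups.

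Against the mean of the Day3 controls, the mRNA of every tested member was higher in siSbp2l. Hes5, Id3 and Sox6 did not pass against every control taken alone. The mean of the 4 control groups, each with equal weight, was the reference, in a limma fit of the 12 Day3 libraries over 11650 genes. All 6 tested members passed in the higher direction, where 35.5% of all genes did, and 3 of them were called, where 7.19% of all genes were called either way and 3.12% higher. The median of all tested genes was itself shifted by 0.15 in this comparison. All 6 members stood at 1 FPKM or more in all 8 control libraries, so the filter on low values did not choose them for being high in siSbp2l. The members were, however, chosen with earlier results of these data known, so their counts are not independent of those results.

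The called members were the Notch effector Hes1 (log2 fold change 1.94, SE 0.11, adjusted p = 8.09e-07), Id2 (1.77, SE 0.09, adjusted p = 4.73e-07) and Hes5 (1.25, SE 0.27, adjusted p = 0.00342). Sox6 stood just under the 2-fold threshold at 0.99 (SE 0.11, adjusted p = 7.08e-05). Id3 rose by 0.66 (SE 0.20, adjusted p = 0.0179) and Id4 by 0.38 (SE 0.07, adjusted p = 0.00199). With median-ratio scaling between libraries, which brings the median of all genes to 0.00, Id4 stood at 0.22 (adjusted p = 0.0493). Id3 stood at 0.73 without siSbp2l replicate 1 (adjusted p = 0.077) and at 0.59 without siSbp2l replicate 2 (adjusted p = 0.134) and did not pass in either case, where a single library was assumed to vary like the other groups.

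Hes1 and Id2 were called against each of the 4 controls taken alone, where 1.19% of all genes were called higher in all 4. Hes1 rose by 2.18 over non-treated, 1.73 over mock, 1.77 over NC siRNA #1 and 2.08 over NC siRNA #2. Id2 rose by 1.78, 1.26, 2.42 and 1.63 over the controls in that order. Hes5 was called against mock (1.01), NC siRNA #1 (1.35) and NC siRNA #2 (1.74) but not against non-treated (0.87, adjusted p = 0.0571), the group whose libraries differed most. With the non-treated group left out of the controls, Hes5 stood at 1.37 (adjusted p = 0.00256), and with a correction for GC content and length at 1.20 (adjusted p = 1.61e-05).

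Sox6 depended on the control. It was called against non-treated (1.26), mock (1.03) and NC siRNA #1 (1.62), and differed by 0.04 (SE 0.15, adjusted p = 0.851) from NC siRNA #2. Id3 passed against non-treated (0.83, limma adjusted p = 0.0198) and NC siRNA #2 (0.77, adjusted p = 0.0324). It did not pass against mock (0.41, adjusted p = 0.215) or NC siRNA #1 (0.62, adjusted p = 0.0634). In levels, all 6 tested members lay above all 8 control libraries in both siSbp2l libraries, where 30.8% of the tested genes did so, and so did Id1, which was not tested. For Sox6 the gap to the nearest control library was small, 94.9 against 93.8 FPKM.

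**Figure D3:**
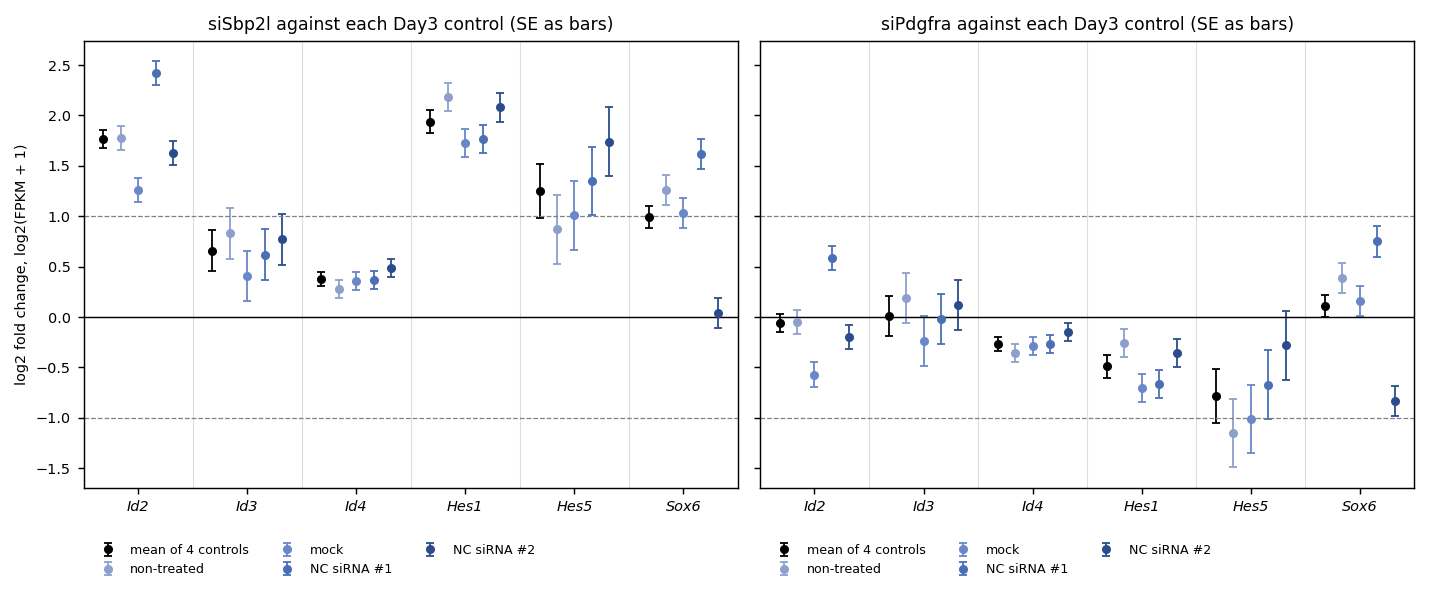
Log2 fold change on the log2(FPKM + 1) scale of the 6 tested genes in siSbp2l (left) and siPdgfra (right) against the mean of the 4 Day3 controls (black) and against each control (blue shades), as points with the SE as bars and dashed lines at 2-fold. In siSbp2l every point of Id2 and Hes1 lies above the upper dashed line and the Sox6 point against NC siRNA #2 lies at 0.04, while in siPdgfra the points of Hes1, Hes5 and Id4 lie below 0.

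KD of Pdgfra, the receptor for the mitogen that was withdrawn at the start of differentiation, changed the members less and in other directions. The control libraries are those used for siSbp2l. No member was called against the mean of the Day3 controls, where 7.99% of all genes were called. Hes5 (-0.78, SE 0.27, adjusted p = 0.0332), Hes1 (-0.49, SE 0.11, adjusted p = 0.00443) and Id4 (-0.27, SE 0.07, adjusted p = 0.0118) passed in the lower direction, where 23.0% of all genes did. Id2 stood at -0.06 (SE 0.09, adjusted p = 0.632), Id3 at 0.01 (SE 0.20, adjusted p = 0.955) and Sox6 at 0.11 (SE 0.11, adjusted p = 0.415). The controls taken alone gave other values (limma). Id2 passed below mock (-0.57, adjusted p = 0.00371) and above NC siRNA #1 (0.59, adjusted p = 0.00273). Sox6 passed above non-treated (0.39) and NC siRNA #1 (0.75, adjusted p = 0.00219) and below NC siRNA #2 (-0.83, adjusted p = 0.00119). Hes5 was called lower than non-treated (-1.15) and mock (-1.01) and did not pass against either NC siRNA. Hes1 passed below mock and NC siRNA #1, but not non-treated (-0.26, adjusted p = 0.163) or NC siRNA #2 (-0.36, adjusted p = 0.0661). Id4 passed below every control but NC siRNA #2 (-0.15, adjusted p = 0.209). In levels, Id4 and Hes1 lay below all 8 control libraries, where 17.5% of the tested genes did so.

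With 1 library left out, these 3 differences kept their sign but did not pass in every case. Id4 stood at -0.28 without siPdgfra replicate 1 (adjusted p = 0.0659) and at -0.26 without replicate 2 (adjusted p = 0.0803), and Hes1 at -0.45 without siPdgfra replicate 1 (adjusted p = 0.0564). Hes5 stood at -0.75 without mock replicate 1 (adjusted p = 0.0586) and at -0.76 without NC siRNA #1 replicate 2 (adjusted p = 0.0561) or NC siRNA #2 replicate 2 (adjusted p = 0.0572). It moved more with the siPdgfra libraries, to -1.03 without replicate 1 (adjusted p = 0.0563) and -0.53 without replicate 2 (adjusted p = 0.288). With the NC siRNA groups as the only controls, Hes5 stood at -0.48 (adjusted p = 0.204).

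The KDs were also set against each other, which tests the difference between them. There 3 members were called, all higher in siSbp2l, where 13.7% of all genes were called either way and 6.94% higher. Hes1 differed by 2.43 (SE 0.14, adjusted p = 9.91e-07), Hes5 by 2.02 (SE 0.34, adjusted p = 0.000747) and Id2 by 1.83 (SE 0.12, adjusted p = 1.70e-06). Sox6 (0.87) and Id4 (0.64) passed, and Id3 had a difference of 0.64 (adjusted p = 0.0532). Id3 depended on the processing, as it passed in 8 alternatives and did not in 16. It passed in limma with only the compared libraries fitted (0.64, adjusted p = 0.00187). With a correction for GC content and length it stood at 0.75 (limma adjusted p = 0.00031).

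The control groups were not interchangeable for these genes. Sox6 was the 1 member called between the non-targeting siRNAs, where 3.99% of all genes were called, with a log2 fold change of -1.58 (SE 0.15, adjusted p = 5.01e-05) for NC siRNA #1 against NC siRNA #2. Id2 passed with -0.79 (adjusted p = 0.00111). For both NC siRNAs against the groups without siRNA, no member was called (1.28% of all genes), Id2 passed with -0.50 (adjusted p = 0.00178) and Sox6 with 0.31 (adjusted p = 0.0468). That Sox6 difference did not pass once any 1 of 10 libraries was left out, those other than the non-treated. None of the 6 passed between mock and non-treated, where 0.206% of all genes passed higher and 0.00858% lower, and an unadjusted p under 0.05 was reached by Id2 and Hes1.

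Genes of the pathways around the members were counted next, beside the 35.5% of all genes that passed higher and the 17.9% that passed lower in siSbp2l against the controls. The lists too were chosen with earlier results of these data known. Of the Notch list, 28 of 33 genes were tested, of which 10 passed higher and 3 lower, with a median of 0.22 beside 0.15 for all genes. The share that passed higher was thus near that of all genes. The called genes were the ligand gene Dll1 (1.29, adjusted p = 2.91e-06), the receptor gene Notch1 (1.26, adjusted p = 5.23e-06) and the ligand gene Jag1 (1.06, adjusted p = 5.12e-06). Notch1 averaged 49.4 ± 1.77 FPKM (SD, n = 2) in siSbp2l and 14.6 to 25.5 FPKM over the control group means, Dll1 32.7 ± 0.525 against 9.40 to 15.0, and Jag1 7.24 ± 0.156 against 2.67 to 3.74. Day0 held 32.3, 65.7 and 9.85 FPKM of Notch1, Dll1 and Jag1, so that Notch1 in siSbp2l stood above its Day0 level and both ligands below theirs.

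Of the BMP and Smad list, 18 of 28 genes were tested, of which 12 passed higher and 3 lower (35.5% and 17.9% of all genes), with a median of 0.53. The 1 called gene went down, and it was Smad7, which encodes an inhibitory Smad (log2 fold change -1.33, adjusted p = 6.17e-06). Its mean was 4.25 ± 0.0996 FPKM (SD, n = 2) in siSbp2l against 7.05 to 17.5 FPKM over the control group means.

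Of the HLH partners and co-repressors, 15 of 18 were tested, 5 passed higher and 3 lower, with a median of 0.03, so that both shares were near the 35.5% and 17.9% of all genes. The co-repressor gene Tle4 (1.73, adjusted p = 2.84e-07) and the E protein gene Tcf4 (1.04, adjusted p = 6.66e-05) were called higher. The co-repressor gene Tle2 (-1.29, adjusted p = 0.000211) and the HLH repressor gene Bhlhe41 (-1.21, adjusted p = 1.32e-06) were called lower. Tle4 averaged 107 FPKM in siSbp2l against 25.2 to 38.0 FPKM over the control group means and 29.3 FPKM in Day0.

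All 10 other Sox genes of the list were tested, and 7 passed higher and none lower (35.5% and 17.9% of all genes), with a median of 0.63. Sox11, a SoxC gene of immature neural cells, was called at 1.46 (adjusted p = 1.00e-06), and Sox13, the remaining SoxD gene, at 1.03 (adjusted p = 0.000254). Sox11 averaged 45.6 FPKM in siSbp2l, 12.8 to 18.7 FPKM over the control groups and 80.7 FPKM in Day0.

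In siPdgfra, genes of these lists passed in both directions. The Notch list had 10 genes higher and 9 lower, where 32.4% and 23.0% of all genes passed in each direction. Notch2 (1.56) and Numbl (1.11), a relative of the Notch inhibitor Numb, were called higher, and Lfng (-1.20), which encodes an enzyme that adds sugars to Notch, lower. Of the BMP and Smad list 9 passed higher and 2 lower, with the ligand gene Bmp2 (2.22), the receptor gene Acvr2b (1.19) and the antagonist gene Nog (1.06) called higher and the receptor gene Bmpr1a (-1.04) lower. Of the HLH list 8 passed higher and 5 lower, with Neurog2 (1.70) called higher and Bhlhe40 (-1.41) and Tle3 (-1.23) among the 5 called lower. Of the Sox list 5 passed higher and 2 lower, and Sox21 (1.26) was called.

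**Figure D4:**
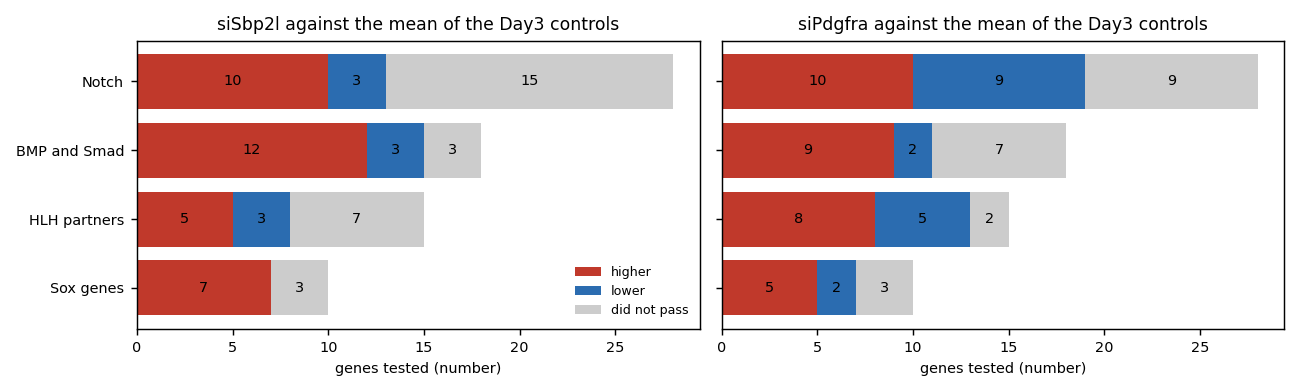
Number of tested genes in each pathway list that passed higher (red), passed lower (blue) or did not pass (grey) in siSbp2l (left) and siPdgfra (right) against the mean of the Day3 controls. In siSbp2l the BMP and Smad list has 12 genes higher and 3 lower and the Sox list 7 higher and none lower.

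Some members are also expressed by astrocytes, for which Id3, Id4 and Hes5 are well-known genes. The 8 astrocyte markers summed to 67.9 to 70.3 FPKM in Day0, 105 to 178 FPKM in the control libraries, 129 to 136 FPKM in siSbp2l and 49.1 to 50.5 FPKM in siPdgfra. The siSbp2l libraries thus lay within the range of the controls for this sum, and 6 of the 8 markers had at least 1 FPKM in either set. In siSbp2l, Aldh1l1 (2.40 FPKM against 3.94 to 6.30) and Aqp4 (0.142 against 0.258 to 0.456) lay below all control group means. Fgfr3 (3.71 FPKM against 1.33 to 2.37) and Slc1a2 (22.8 against 12.8 to 20.0) lay above them. Gja1 averaged at most 0.0316 FPKM in any group and was at 0 in siSbp2l and in NC siRNA #1. In siPdgfra and Day0 the astrocyte sum was lower than in the controls, as were the mean levels of Id4 and Hes5. Hes5 in siPdgfra overlapped NC siRNA #2. Mean Id3 was lower in Day0 (32.8 FPKM), but in siPdgfra (58.5 FPKM) it lay within the control group means (53.4 to 68.8 FPKM). The part of astrocytes in the levels of these genes was not tested. Of the 7 microglia markers, P2ry12 averaged 0.602 FPKM in Day0, 1.19 to 9.12 FPKM over the control groups, 3.52 FPKM in siSbp2l and 7.07 FPKM in siPdgfra, while the other 6 averaged at most 0.0442 FPKM in any group. Of the 5 endothelial markers, Kdr averaged 0.597 FPKM in siSbp2l and 1.05 to 1.67 FPKM over the control groups, and Cldn5 and Cdh5 were at 0 throughout. The 6 pericyte and fibroblast markers summed to at most 0.368 FPKM.

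Markers of neurons summed to 199 to 201 FPKM in siSbp2l and 47.8 to 276 FPKM in the controls, a sum that Tubb3 carried (194 FPKM in siSbp2l). Syt1 averaged 5.05 FPKM in siSbp2l and 4.72 FPKM in siPdgfra against 0.359 to 1.68 FPKM over the control groups, and Rbfox3 averaged 1.15 FPKM in siSbp2l and 0.105 FPKM in siPdgfra against 0.175 to 0.527 FPKM. Both thus lay above every control group in siSbp2l, while Snap25 lay below every one (0.215 FPKM against 0.371 to 0.697 FPKM). Stmn2 averaged at most 0.0501 FPKM in any group. The 5 OPC markers summed to 519 to 549 FPKM in siSbp2l and 399 to 672 FPKM in the controls, but did not move alike. Pdgfra averaged 147 FPKM in siSbp2l against 32.5 to 67.4 FPKM over the control groups, 2.83 times their mean, and Ptprz1 116 FPKM against 54.7 to 98.6 FPKM. Gpr17, a marker of precursors that have begun to differentiate, averaged 93.6 FPKM against 174 to 211 FPKM, and Cspg4 and Lhfpl3 lay within the range of the control groups. Pdgfra, Ptprz1, Syt1 and Rbfox3 were thus above the control groups in siSbp2l, as were Id2 and Hes1, while Gpr17 and Snap25 were below them. The part of precursors or neurons in the levels of Id2 and Hes1 was not tested.

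The members fell into different patterns over the 14 libraries. As a description, with libraries that share culture and group, the Pearson correlation of log2(FPKM + 1) was 0.85 between Id2 and Hes1 and 0.73 between Id2 and Sox6, and 0.86 between Id3 and Hes5, 0.77 between Id4 and Hes5 and 0.75 between Id3 and Id4. Between Id2 and Id4 it was -0.27. Among 3511 genes that varied between groups, Id2 was most like Rsu1 (0.96), Fzd2 and Stk32a (both 0.95), Hes1 most like Robo1 (0.98), Tox3 (0.95) and Slc27a3 (0.94), and Sox6 most like Myo5b (0.93), Rhoj and Itpkb (both 0.92). Id3 was most like Nfkbia (0.90), Klf15 and Ksr1 (both 0.88), and Rab2b and Sparcl1 (both 0.97) were among those most like Id4. Hes5 was most like the collagen gene Col9a2 (0.96), the apolipoprotein gene Apoe and the complement gene C4b (both 0.93).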

How the data were processed

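mRNA-seq libraries (stranded poly(A) kit, paired-end) were processed by the authors with OmicSoft ArrayStudio on mm10, with DESeq2 named for their comparisons. Versions, the aligner and whether counting used strand are not given in the sources used here. Per the file headers, the deposited table holds FPKM in 1 column per library, and no columns of values were left unmapped (0). A second deposited table gave positions and exon lengths, and its columns of the authors' own fold changes and p-values were not used. Groups came from the sample labels. The Day3 columns without a treatment were matched to non-treated by name, and 1 misspelled name to siSbp2l.

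The 8 members and all gene lists were chosen with earlier results of these data known. FPKM values were used as deposited and tested with limma 3.58.1 (R 4.3.3, trend and robust moderation) on log2(FPKM + 1), a scale that understates the change of low genes. Genes with at least 1 FPKM in at least 2 libraries were tested, with 1 mean per group, in the 12 Day3 libraries (11650 genes, 6 residual degrees of freedom) or all 14 (11874 genes, 7 residual degrees of freedom). Tests were two-sided with Benjamini-Hochberg adjustment. A call needed an adjusted p under 0.05 and at least 2-fold. Named genes were the members, the targets, at most the 3 called genes with the largest rise and the 3 with the largest fall of each pathway list in a comparison, the 3 genes most correlated with each member, and markers. A few genes that this rule names are not reported here.

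Depth was recovered from whole-fragment steps in low values (at least 0.2 FPKM and up to 50 fragments). Between 88.8% and 92.5% of those of genes with a single transcript were whole within 0.1, so the depths are estimates and no count test was run. Intervals cover counting error only, since PCR copies are not independent molecules. Replicates differed by more than sampling noise (mean chi-square per gene of 1.77 to 28.04) and all libraries were kept. The scripts were tested on simulated data. GC content was the mean over a gene's GENCODE transcripts on GRCm38 and was known for 92.9% of tested genes. Sequences were read from RefSeq promoter windows, of which 6 of the 8 members had at least 1. Alternatives were the pseudocount, the filter, 2 scalings, the fit, the replicate block, a GC and length correction, the control groups and leaving out each library.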

Additional observations from a re-analysis of the deposited data

Results flagged for a closer look

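The effects of the KDs differed from each other for 3 members, by the test of siSbp2l against siPdgfra in the limma fit of the Day3 libraries. The difference on the log2(FPKM + 1) scale was 2.43 for Hes1, 2.02 for Hes5 and 1.83 for Id2, all higher in siSbp2l in both libraries. For Hes1 and Hes5 siSbp2l lay above and siPdgfra below the mean of the controls, and for Id2 siPdgfra stood at -0.06 from it.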

How the results depend on the processing

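Over all alternatives, Id2, Hes1, Hes5, Sox6 and Id4 passed with a higher level in siSbp2l than in the Day3 controls in each, with Hes1 between 1.11 (pseudocount 5) and 2.39 (pseudocount 0.1). In all, 1543 values for single genes kept direction and side of the threshold, 58 lost it and 28 gained it. Without the fold threshold the counts were 6 for siSbp2l and 3 for siPdgfra against the controls, 5 between the KDs, 2 between the NC siRNAs and 2 for both NC siRNAs against no siRNA, and against Day0 6 in mock, 5 in NC siRNA #2 and 5 in siPdgfra. With pseudocount 5, which shrinks low genes, the counts against Day0 were 2 in non-treated, 1 in mock and 1 in siPdgfra. With pseudocount 0.1 NC siRNA #2 had 4. Median-ratio and upper-quartile scaling each gave 3 in non-treated.

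Signs turned for 15 values, whose differences as reported lay between -0.11 and 0.11. For siPdgfra against the controls, Id3 stood at -0.06 (median-ratio), -0.08 (upper-quartile), -0.09 (GC and length correction, also with the replicate block), -0.04 (controls without non-treated), -0.09 (without siPdgfra replicate 1), and between -0.11 (without non-treated replicate 2) and 0.14 when 1 library was left out. With the NC siRNAs as the only controls, Id2 stood at 0.20 and Sox6 at -0.04. For both NC siRNAs against no siRNA, Hes1 stood at -0.00 (upper-quartile), -0.02 (without non-treated replicate 2) and from -0.08 (without NC siRNA #2 replicate 1) to 0.14 over the left-out libraries, Id4 at 0.01 (GC and length correction, also with the replicate block) and Id3 from -0.33 (without non-treated replicate 2) to 0.18 (without non-treated replicate 1). Where no cause follows from the construction of an alternative, the cause was not tested.

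Leaving out 1 library moved the count of members called between 3 and 4 for siSbp2l against the controls and between 2 and 3 against all 4 controls, and kept it at 0 for siPdgfra in both and at 3 between the KDs. Against Day0 it lay between 4 and 5 in non-treated, 2 and 3 in mock, 4 and 5 in NC siRNA #1, 2 and 3 in NC siRNA #2 and 3 and 4 in siPdgfra, and at 4 in siSbp2l. It was 1 between the NC siRNAs and 0 for both NC siRNAs against no siRNA throughout.

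Pairing by replicate number was not evident, as deviations of same-numbered libraries correlated between -0.38 and 0.47 (median 0.02, over 0.1 in 4 of 21 pairs of groups). These correlations cannot show that same-numbered libraries were prepared apart, and the sources do not say how replicates were numbered. With the replicate number as a block, 3 members were called in siSbp2l and 0 in siPdgfra against the controls, 3 between the KDs and 2 against all 4 controls, and against Day0 the counts were those without it, 5 in non-treated, 4 in NC siRNA #1, 4 in siSbp2l, 3 in mock, 3 in siPdgfra and 2 in NC siRNA #2. With 2 libraries a group, small differences cannot be told from 0, and Id1 and Sox5 lie near or under the level that can be tested.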

Other observations

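Between Day0 and Day3 mock cells, where 26.2% of all genes were called, genes of each pathway list were called in both directions. Of the BMP and Smad list, 5 of the 19 tested genes were called higher and 2 lower. The inhibitory Smad gene Smad7 rose by 3.16, from 0.461 to 12 FPKM, and the ligand gene Bmp4 by 2.32, from 0.156 to 4.75 FPKM, while the ligand gene Bmp7 (-2.90, from 55.9 to 6.60 FPKM) and the antagonist gene Chrdl1 (-3.08, from 12.1 to 0.554 FPKM) fell. Of the Notch list, 4 of 29 were called higher and 4 lower. The target gene Hey1 rose by 1.80, from 5.26 to 20.8 FPKM, and the ligand gene Dll1 fell by 2.06 on the log2 scale, from 65.7 to 15.0 FPKM. Of the HLH list, 2 of 15 were called higher, the repressor genes Bhlhe41 (1.78) and Bhlhe40 (1.75), and 3 lower, with Olig1 (-1.25) and Olig2 (-1.18) among them. Of the Sox list, 2 of 10 were called higher, Sox4 (1.89) and Sox8 (1.74), and 3 lower, with Sox11 (-2.05) and Sox9 (-1.59) among them.

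Few pathway genes were called between the non-targeting siRNAs, namely 1 of 18 of the BMP and Smad list and 1 of 28 of the Notch list, where 3.99% of all genes were called. Smad7 averaged 17.5 FPKM in NC siRNA #1 and 7.05 FPKM in NC siRNA #2 (log2 difference 1.20, limma adjusted p = 0.000169), and Mfng 1.86 and 0.0858 FPKM (1.39, adjusted p = 0.000396). For both NC siRNAs against no siRNA, 1 of the 28 Notch genes was called (1.28% of all genes). Dll3 averaged 0.296 and 1.00 FPKM in the NC siRNA groups against 4.31 and 3.72 FPKM in non-treated and mock (-1.59, adjusted p = 0.000267).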
